A study of Mus musculus with 16 samples.

Results

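The odorant receptor genes examined here are those on mouse chromosome 7 whose symbols run from Olfr467 to Olfr541. Members were chosen by symbol: the numbers from Olfr467 to Olfr541, no pseudogene suffix, and 10 receptors of that range left out (Olfr481, Olfr484, Olfr488, Olfr490, Olfr506, Olfr517, Olfr520, Olfr523, Olfr533 and Olfr536). Of the 75 numbers in the range, 48 gave a member, 10 were left out, and 17 had no measured symbol of that form. The 48 members were set against the 1032 other Olfr genes on the array, out of 1080 Olfr genes and 19505 genes in all. Several of the left-out receptors changed with smoke, so the number of members that changed with smoke depends in part on that choice. The mouse annotation (GRCm38.p6) places every member on chromosome 7, in a block of 36 members from Olfr467 to Olfr519 and another of 11 members from Olfr522 to Olfr541. Olfr521 lies apart from both blocks, beside the left-out Olfr520.

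Odorant receptors are G protein-coupled receptors in the cilia of olfactory sensory neurons, and most mature neurons express a single receptor gene from a single allele. An odorant that binds the receptor acts through the G protein Golf and adenylyl cyclase to open a cyclic nucleotide-gated channel, and sustained activity raises some genes in the same neuron. Mammalian receptors are divided into class I, which resemble those of fish, and class II, which form the larger part of the family. The class of the members is taken from the field's naming and was not tested with these data.

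Gene expression was measured on 16 Clariom S arrays in 4 groups of 4. All animals were S100a5-tauGFP mice of both sexes, 7 to 12 weeks old, in which green fluorescent protein (GFP) is made under the control of S100a5, a gene for a calcium-binding protein that olfactory sensory neurons make after activity. Each pool held 3 mice, and the mice were kept for 40 h in chambers supplied with 3.1 L of clean air per min. Starting at 26 h, pulses of 10 s were given every 20 min, of cigarette smoke odour to 4 pools and of clean air (vehicle) to the other 4. The 4 groups were smoke GFP+, vehicle GFP+, smoke GFP- and vehicle GFP- cells sorted from dissociated olfactory mucosa, and the GFP+ and GFP- cells of a pool share their mice. The odour is called cigarette smoke in the title and in the label of each sample, which were followed here, although the text on the design names bourgeonal. The comparison asks which receptors belong to neurons that make more S100a5-driven GFP when smoke is present.

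The values are log2 array signals as deposited, and the number of arrays limits their precision. S100a5 had log2 signals of 17.11, 16.80, 17.14 and 17.01 in smoke GFP+ cells, against 16.39, 16.51, 16.44 and 16.49 in vehicle GFP+ cells. It ran between 15.51 and 16.08 in smoke GFP- cells, against 14.91 to 15.47 in vehicle GFP- cells, so smoke pools were higher in both fractions without overlap, although neither difference passed the threshold (adjusted p = 0.364 and 0.179, limma). S100a5 was thus higher in GFP+ than in GFP- cells in every pool, by 1.15 ± 0.14 in smoke pools (adjusted p = 6.45e-06) and 1.21 ± 0.14 in vehicle pools (adjusted p = 2.88e-06; log2 differences ± SE, limma). Omp, which marks mature olfactory sensory neurons, lay between 18.06 and 18.29 on every array, near the highest array value of 18.6. No smoke or sort difference in Omp passed the threshold. Of 18 mature neuron markers, 5 were called higher and 1 lower in GFP+ than in GFP- cells of smoke pools (limma). In vehicle pools 10 were called higher and 1 lower. The median differences of these markers were 0.22 in smoke and 0.34 in vehicle pools. The GFP- cells also held other cell types: a list of 11 immune markers averaged 7.99 to 8.58 on GFP+ arrays, against 13.1 to 14.5 on GFP- arrays. Sustentacular markers (12 genes) averaged 10.4 to 11.4 in smoke GFP+ cells, against 10.3 to 10.6 in vehicle GFP+ cells. In sorted pools, fewer neurons with a receptor and less receptor RNA per neuron cannot be told apart.

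The coding starts of 10 members are shown because they are alike in pairs, some with like and some with unlike values on the arrays, and that of Olfr521 because it is the member called between exposures. Each line gives the first 50 bases of the coding sequence from RefSeq (GRCm38.p6), 5′ to 3′, with the start codon in capitals.
Olfr494, chr7:108367492-108367541, + strand: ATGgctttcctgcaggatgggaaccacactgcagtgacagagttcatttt
Olfr495, chr7:108395122-108395171, + strand: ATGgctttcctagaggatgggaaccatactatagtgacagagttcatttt
Olfr482, chr7:108095519-108095568, - strand: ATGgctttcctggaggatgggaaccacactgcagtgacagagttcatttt
Olfr492, chr7:108323625-108323674, - strand: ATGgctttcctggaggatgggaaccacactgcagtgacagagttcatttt
Olfr472, chr7:107902719-107902768, + strand: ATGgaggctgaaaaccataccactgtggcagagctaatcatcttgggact
Olfr473, chr7:107933522-107933571, + strand: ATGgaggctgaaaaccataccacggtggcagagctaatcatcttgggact
Olfr525, chr7:140322701-140322750, + strand: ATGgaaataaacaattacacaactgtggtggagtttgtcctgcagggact
Olfr532, chr7:140419722-140419771, - strand: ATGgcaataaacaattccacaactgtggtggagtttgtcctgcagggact
Olfr527, chr7:140335864-140335913, + strand: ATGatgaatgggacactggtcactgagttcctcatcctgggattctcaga
Olfr531, chr7:140400995-140401044, - strand: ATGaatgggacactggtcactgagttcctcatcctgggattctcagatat
Olfr521, chr7:99767164-99767213, + strand: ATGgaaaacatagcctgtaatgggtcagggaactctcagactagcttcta

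Of the 48 members, 44 were matched by symbol to a RefSeq sequence, and 42 of these had a start codon at the annotated start. Compared without gaps over 50 bases, pairs within the Olfr467 to Olfr519 block shared a median of 16 bases and pairs within the Olfr522 to Olfr541 block a median of 17 bases, against 15 for pairs from different blocks. Closer likeness was found in 4 sets joined by at least 45 identical bases, which held 17 members. The first set held 11 members (Olfr469, Olfr470, Olfr482, Olfr492, Olfr493, Olfr494, Olfr495, Olfr497, Olfr498, Olfr502 and Olfr507). The other sets were the pairs Olfr472 and Olfr473 (49 of 50 bases), Olfr516 and Olfr519 (49 of 50) and Olfr525 and Olfr532 (48 of 50). The start of Olfr531 matched that of Olfr527 at 47 of 47 bases once it was moved by 3 bases. Whether array probes of such members also bind each other's transcripts was not tested.

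Most members were higher in GFP+ than in GFP- cells, whichever exposure the pool had received. In smoke pools 35 members rose, 3 fell and 10 did not pass an adjusted p of 0.05, against a background of 18.3% of all genes higher and 14.4% lower (limma, all genes tested). In vehicle pools 35 members rose, 3 fell and 10 did not pass, against 24.2% of all genes higher and 15.4% lower. Of the 1032 other Olfr genes, 48.1% rose and 22.8% fell in smoke pools, and 51.6% rose and 19.9% fell in vehicle pools. The members thus rose in 72.9% of cases in each exposure, and their median difference was 1.22 in smoke pools and 1.29 in vehicle pools, against 0.57 and 0.74 for the other Olfr genes (log2, no test of this contrast between lists). The cumulative plot of sort differences shows the members' curve to the right of the other Olfr genes' curve over most of its length.

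**Figure D1:**
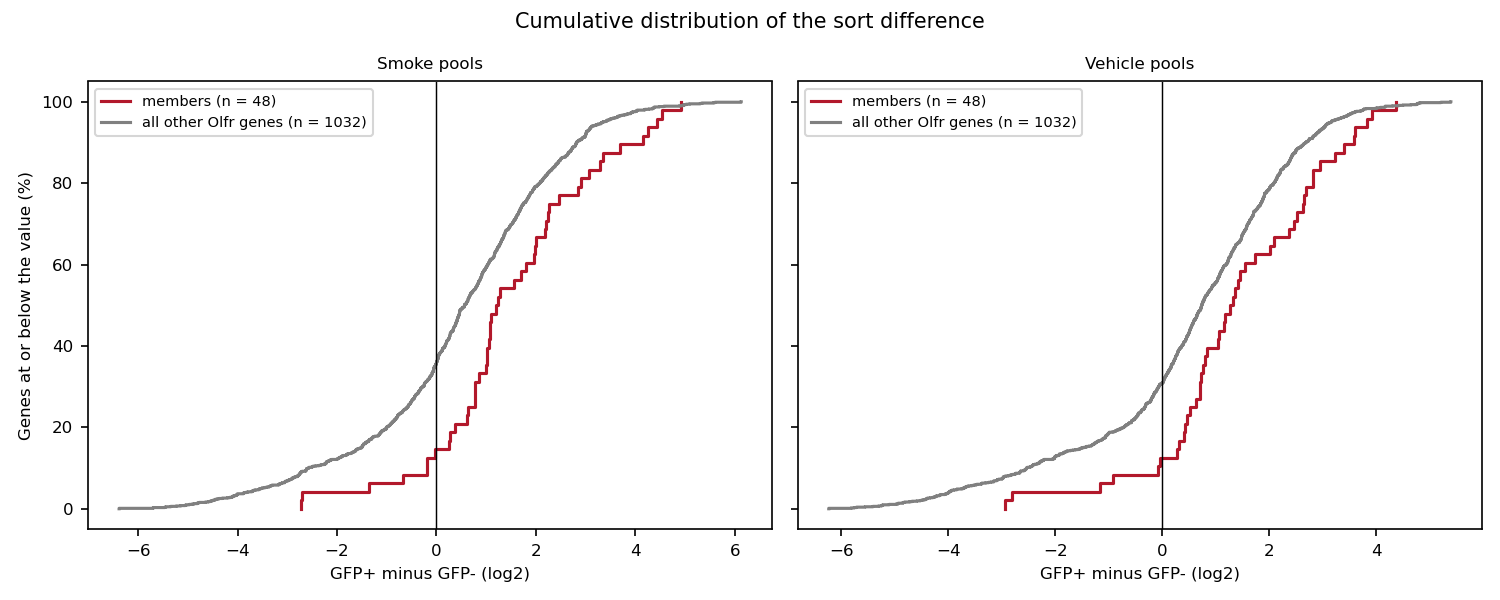
Cumulative share of genes (%, y axis) by the log2 difference between GFP+ and GFP- cells (x axis), for the 48 members and the 1032 other Olfr genes, in smoke pools (left) and vehicle pools (right). The members' medians are 1.22 and 1.29, against 0.57 and 0.74 for the other Olfr genes.

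Over all genes the median of the differences between GFP+ and GFP- cells was 0.15 in smoke pools and 0.17 in vehicle pools. The median signal of an array was nonetheless lower in GFP+ cells, at 7.87 to 7.96, against 8.19 to 8.29 in GFP- cells. Centring each array on the median of its Olfr genes moved the median difference over all genes by -0.70 and -0.71, to -0.55 in both. On that scale 24 members rose and 7 fell in smoke pools, and 25 rose and 6 fell in vehicle pools. Of the 1032 other Olfr genes, 356 (34.5%) rose and 415 fell in smoke pools, and 385 (37.3%) rose and 360 fell in vehicle pools. Olfr470 and Olfr512 were called higher in vehicle pools and changed sign on that scale, no longer past the threshold.

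Of the members, 32 rose in both exposures, and Olfr487 and Olfr495 fell in both. Olfr486, Olfr492 and Olfr497 were called higher in smoke pools alone, and Olfr476, Olfr512 and Olfr514 in vehicle pools alone. Olfr498 was called lower in smoke pools and Olfr483 in vehicle pools. For none of these 8 did the difference between exposures pass the threshold, though that of Olfr497 did when arrays were centred on the Olfr median. The remaining 6 members (Olfr485, Olfr503, Olfr504, Olfr513, Olfr530 and Olfr539) were not called in either exposure.

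**Figure D2:**
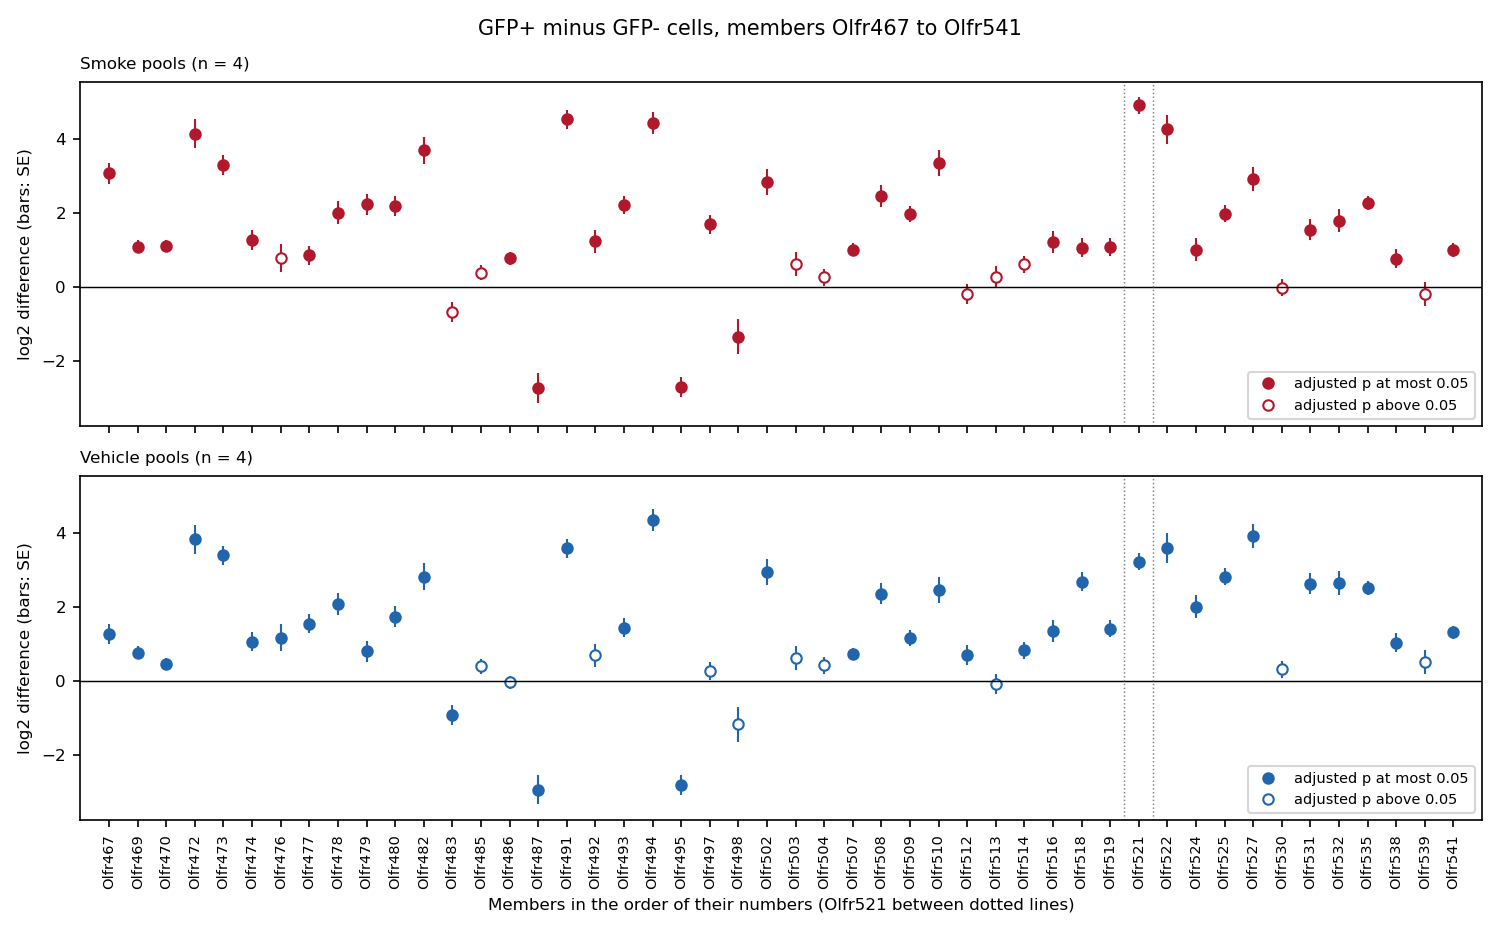
Log2 difference between GFP+ and GFP- cells (y axis, bars are SE from limma) for each member in the order of its number (x axis), in smoke pools (top) and vehicle pools (bottom). Filled points passed an adjusted p of 0.05. In each exposure 35 members rose and 3 fell.

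A low signal on these arrays need not come from a transcript. The level of vomeronasal receptor genes, which belong to another organ, was used to mark it: a group was taken to lie at that level where its mean did not exceed the mean over its arrays of the 95th percentile of 319 such genes. That level was 6.57 in smoke GFP+, 6.46 in vehicle GFP+, 6.26 in smoke GFP- and 6.19 in vehicle GFP- cells. In GFP+ cells 7 members lay there in smoke pools and 9 in vehicle pools, and in GFP- cells 15 members lay there in each exposure. Olfr485, Olfr498, Olfr503, Olfr504, Olfr512, Olfr513 and Olfr514 lay there in all 4 groups, and 30 members in none. The members called higher in vehicle pools thus include Olfr512 and Olfr514, with both fractions at that level. Their vehicle means were 6.01 and 5.49 in GFP+ cells, against 5.30 and 4.66 in GFP- cells. Every member of the Olfr522 to Olfr541 block lay above that level in all groups. Where one of the groups compared lay there, the fold is given as a bound, against that group's values raised to its level. The bound makes no allowance for the higher level in GFP+ than in GFP- cells, nor for folds that the array scale may stretch.

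Among the members higher in GFP+ cells, Olfr494 and Olfr521 were at the vomeronasal level in GFP- cells. Olfr494 had log2 signals of 9.77, 9.83, 9.23 and 8.77 in smoke GFP+ cells, against 4.66, 5.33, 4.55 and 5.30 in smoke GFP- cells. In vehicle pools it had 10.34, 10.18, 10.37 and 9.63 in GFP+ cells, against 6.66, 5.57, 5.32 and 5.52 in GFP- cells. The fractions were well apart in every pool, and the change was at least 8.83-fold in smoke pools (adjusted p = 6.01e-09) and at least 14.1-fold in vehicle pools (adjusted p = 6.12e-09, limma). Olfr521 had 9.59, 9.54, 9.78 and 9.07 in smoke GFP+ cells, against 4.56, 4.18, 4.60 and 5.01 in smoke GFP- cells. In vehicle pools it had 9.03, 9.37, 8.73 and 8.36 in GFP+ cells, against 5.67, 5.75, 5.23 and 5.93 in GFP- cells. It was at least 9.40-fold higher in smoke GFP+ than smoke GFP- cells (adjusted p = 9.35e-11), and at least 6.42-fold higher in vehicle pools (adjusted p = 6.84e-09, limma). With 4 pools an exact test of signs within pools cannot go below p = 0.125, the value each of these gave.

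Olfr491 lay above the vomeronasal level in all groups. It had 13.37, 12.91, 13.27 and 12.88 in smoke GFP+ cells, against 8.44, 8.48, 8.37 and 9.0 in smoke GFP- cells, a log2 difference of 4.53 ± 0.25 (adjusted p = 7.56e-10). Its vehicle values were 12.33, 13.01, 13.17 and 13.46 in GFP+ cells, against 8.79, 9.18, 9.94 and 9.68 in GFP- cells, a difference of 3.59 ± 0.25 (adjusted p = 9.11e-09, limma). No GFP- value of Olfr491 came near a GFP+ value in either exposure. The same held for Olfr473, with differences of 3.29 ± 0.26 in smoke and 3.40 ± 0.26 in vehicle pools, and for Olfr535, with 2.27 ± 0.20 and 2.52 ± 0.20. Olfr472, Olfr522 and Olfr467 were also among the smoke pools' smallest p-values, at 4.15 ± 0.39, 4.26 ± 0.40 and 3.07 ± 0.28. Olfr527, Olfr525 and Olfr518 were among those of the vehicle pools, at 3.91 ± 0.32, 2.83 ± 0.23 and 2.69 ± 0.25, the last from the vomeronasal level in GFP- cells and so at least 3.92-fold.

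The members that fell in GFP+ cells were few. Olfr495 had 5.76, 7.24, 7.21 and 6.79 in smoke GFP+ cells, against 9.33, 9.41, 9.75 and 9.33 in smoke GFP- cells, and fell by 2.70 ± 0.27 on the log2 scale (adjusted p = 6.24e-07). In vehicle pools it had 6.59, 6.26, 6.30 and 6.61 in GFP+ cells, at the vomeronasal level, against 8.98, 9.37, 8.89 and 9.78 in GFP- cells, a change of at least 6.66-fold (adjusted p = 3.31e-07, limma). Every GFP- value of Olfr495 lay above every GFP+ value. Olfr487 had 8.16, 7.30, 7.89 and 8.63 in smoke GFP+ cells, against 10.33, 10.91, 10.89 and 10.77 in smoke GFP- cells, and fell by 2.73 ± 0.40 (adjusted p = 5.12e-05). In vehicle pools it had 6.78, 8.44, 8.39 and 6.98 in GFP+ cells, against 10.17, 10.01, 10.57 and 11.60 in GFP- cells, and fell by 2.94 ± 0.40 (adjusted p = 1.94e-05, limma). Olfr483 had a difference of -0.68 in smoke pools (adjusted p = 0.0628), and it fell by 0.92 ± 0.27 in vehicle pools (adjusted p = 0.0124, limma). Olfr498 was called lower in smoke pools at -1.35 ± 0.48 (adjusted p = 0.0393), but it lay at the vomeronasal level in all groups. It had 4.22, 5.65, 4.96 and 4.72 in smoke GFP+ cells against 6.84, 5.62, 6.27 and 6.23 in smoke GFP- cells, which overlap. Its adjusted p was 0.0776 with the pool as a block (limma). Its difference turned to 0.20 when values were raised to the vomeronasal level. That level was higher in smoke GFP+ (6.57) than in smoke GFP- cells (6.26).

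Members of the first set of 11, alike in their coding starts, differed in the direction of the sort. In that set 9 members rose and 2 fell in smoke pools, and 7 rose and 1 fell in vehicle pools. Olfr495 fell in both exposures. Olfr498 fell in smoke pools alone, with overlapping values at the vomeronasal level in all groups, as given above. Olfr494 and Olfr495 share 45 of the 50 bases printed above, and in vehicle pools Olfr494 was at least 14.1-fold higher and Olfr495 at least 6.66-fold lower in GFP+ cells, as given above. Olfr482 and Olfr492 share all 50 bases. Olfr482 had 11.14, 11.19, 11.19 and 11.39 in smoke GFP+ cells, against 7.07, 7.70, 6.68 and 8.71 in smoke GFP- cells, a difference of 3.69 ± 0.36. Olfr492 had 7.64, 7.68, 7.44 and 7.04 in smoke GFP+ cells, against 6.40, 6.43, 5.94 and 6.10 in smoke GFP- cells, at the vomeronasal level, and was at least 2.17-fold higher. Of the other alike pairs, Olfr472 and Olfr473 differed between fractions by 4.15 and 3.29 in smoke pools and by 3.83 and 3.40 in vehicle pools. Olfr525 and Olfr532 differed by 1.97 and 1.79 in smoke pools and by 2.83 and 2.65 in vehicle pools. Olfr527 and Olfr531 differed by 2.91 and 1.55 in smoke pools and by 3.91 and 2.63 in vehicle pools. Olfr516 and Olfr519 differed by 1.21 and 1.07 in smoke pools, while in vehicle pools Olfr516 differed by 1.36 and Olfr519, at the vomeronasal level in GFP- cells, was at least 2.35-fold higher. These likenesses are descriptions, and the differences between such receptors were not tested.

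**Figure D3:**
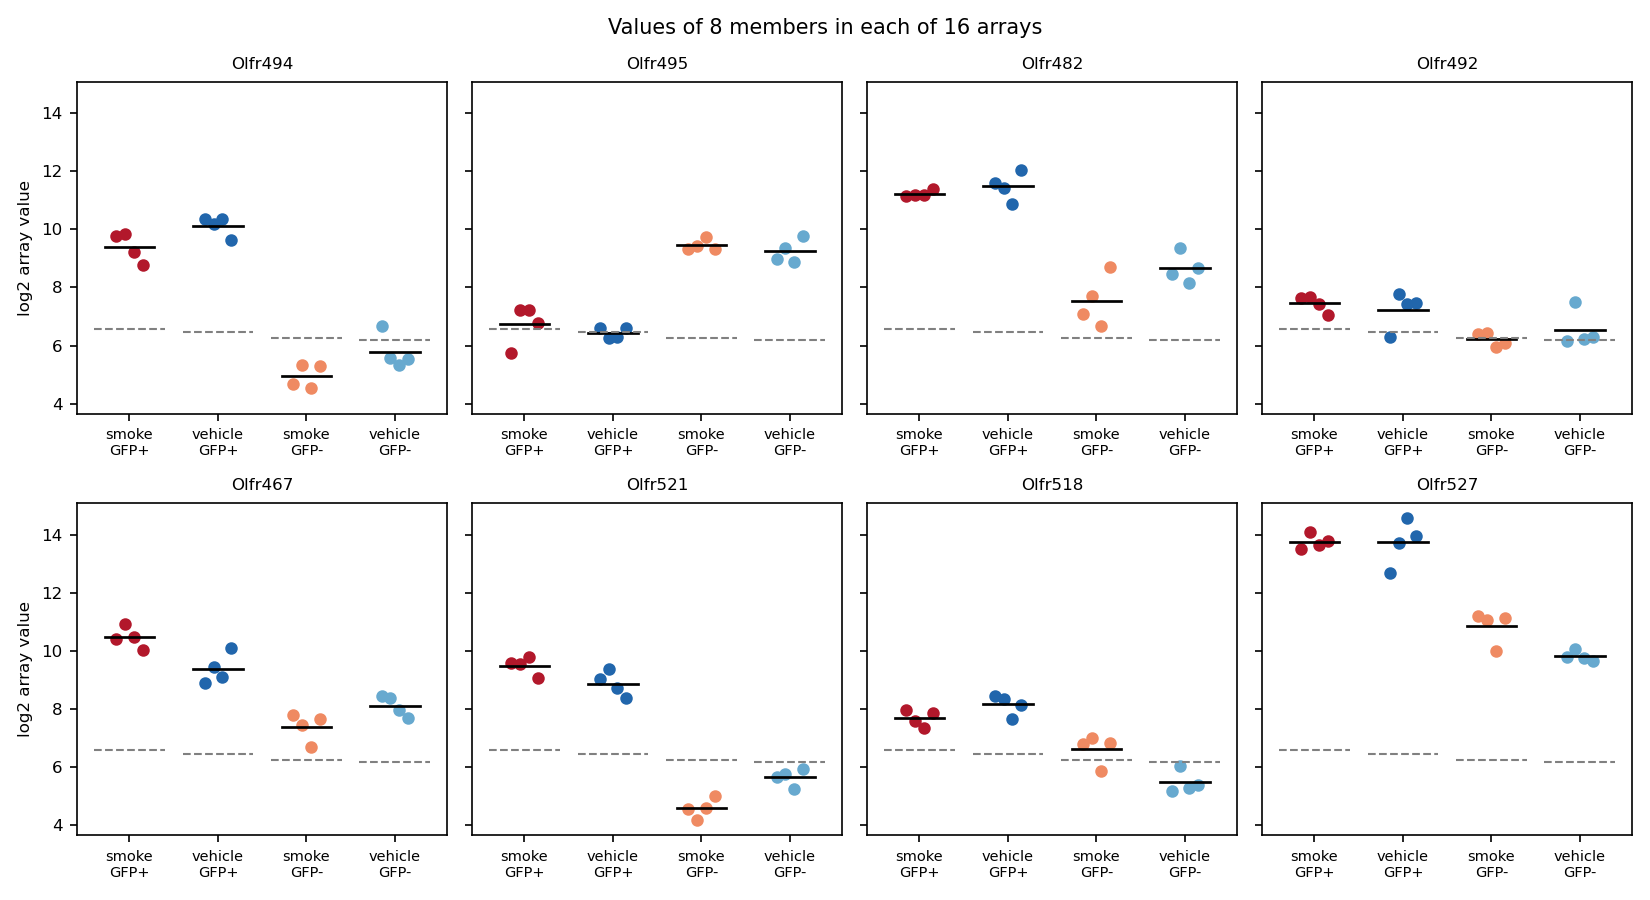
Log2 array value (y axis) of 8 members in the 4 groups (x axis), 1 point per array, with the group mean (black line) and the vomeronasal receptor level of the group (grey dashes). Olfr494 and Olfr495 lie on opposite sides between GFP+ and GFP- cells, and the means of Olfr521 and Olfr494 lie below the dashes in both GFP- groups.

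Smoke against vehicle in GFP+ cells gave no member past the threshold: 0 of 48 members were called, against 0.108% of all genes (limma), and likewise 0 without smoke pools 2 and 4, whose GFP+ arrays had the highest sustentacular values. At an unadjusted p below 0.05 there were 6 members, 4 higher and 2 lower, which is 12.5% of the members, against 18.1% of the other Olfr genes and 4.8% of all genes. The members' median difference was -0.02, against -0.06 for the other Olfr genes, of which 15 rose and 1 fell. Among the members, 2 (Olfr486 and Olfr497) had groups that did not overlap, both higher in smoke, against 1.66% of all genes higher and 1.34% lower in that way. Among the other Olfr genes the shares were 5.62% higher and 3.49% lower.

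The smallest p among members was that of Olfr467. It had 10.41, 10.94, 10.48 and 10.02 in smoke GFP+ cells, against 8.88, 9.46, 9.09 and 10.11 in vehicle GFP+ cells. Vehicle pool 4 lay within the range of the smoke pools and the other vehicle pools lay below it, and the difference was 1.08 ± 0.28 (adjusted p = 0.404, limma). Olfr497 had 11.39, 11.33, 11.56 and 10.81 in smoke GFP+ cells, against 10.46, 10.61, 10.53 and 10.34 in vehicle GFP+ cells, a difference of 0.79 (adjusted p = 0.701, limma). Its groups did not overlap, and the exact permutation p was 0.0286, the smallest that 4 against 4 can give. Olfr486 had 6.66, 6.66, 6.68 and 6.66 in smoke GFP+ cells, against 5.83, 5.94, 6.11 and 6.38 in vehicle GFP+ cells at the vomeronasal level, so that the change was at least 1.15-fold (adjusted p = 0.592, limma). Its smoke GFP+ mean of 6.66 lay close to that group's own level of 6.57. In the other direction Olfr478, Olfr494 and Olfr524 had differences of -0.85, -0.73 and -0.61, with adjusted p-values of at least 0.864 (limma).

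In GFP- cells, too, 0 of 48 members were called between smoke and vehicle, against 0.128% of all genes (limma). Of the 1032 other Olfr genes, 1 rose and 22 fell, and 3 of those that fell were receptors left out of the range. Here 18 members had an unadjusted p below 0.05, 5 higher and 13 lower. That is 37.5% of the members, against 19.9% of the other Olfr genes and 5.72% of all genes. The members' median was -0.06, against 0.17 for the other Olfr genes, of which 66.0% lay above 0. With values raised to the vomeronasal level, the members' median was 0.03, against 0.13 for the other Olfr genes. On that scale 26 members lay above 0, against 21 as deposited. There 14 members had an unadjusted p below 0.05, as did 205 other Olfr genes. Groups did not overlap for 1 member that was higher (Olfr525) and 3 that were lower (Olfr479, Olfr509 and Olfr521), against 1.43% and 1.3% of all genes. Among the other Olfr genes the share was 4.75% in each direction.

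The members of the 2 blocks lay on different sides in GFP- cells. In the Olfr467 to Olfr519 block 24 of 36 members were below 0 with a median of -0.22, and 12 were lower and 1 higher at an unadjusted p below 0.05. In the Olfr522 to Olfr541 block 9 of 11 members were above 0 with a median of 0.39, and 4 were higher and 0 lower at that p. By the same rule 120 of the 1032 other Olfr genes were higher and 85 lower, and 612 of all 19505 genes were higher and 503 lower. The split was seen in the values and then described, and no test was made of it. In each GFP- group 14 members of the Olfr467 to Olfr519 block lay at the vomeronasal level, against 0 of the other block. Differences between such low values need not come from transcripts. The median of the Olfr522 to Olfr541 members was 10.77, 10.58, 9.93 and 11.10 on smoke GFP- arrays, against 9.80, 10.07, 9.86 and 9.78 on vehicle GFP- arrays, so pool 3 of smoke fell within the vehicle range. The median of the Olfr467 to Olfr519 members was 7.40, 7.22, 6.68 and 7.57 on smoke GFP- arrays, against 7.11, 7.56, 7.41 and 7.55 on vehicle GFP- arrays, which overlap. Smoke pool 3 was the lowest of its group in both blocks. On the same GFP- arrays the immune list averaged 13.1 to 14.5 in smoke and 13.6 to 14.5 in vehicle pools, with smoke pool 3 the highest of its group at 14.47, and the part of this in the receptor values was not tested.

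**Figure D4:**
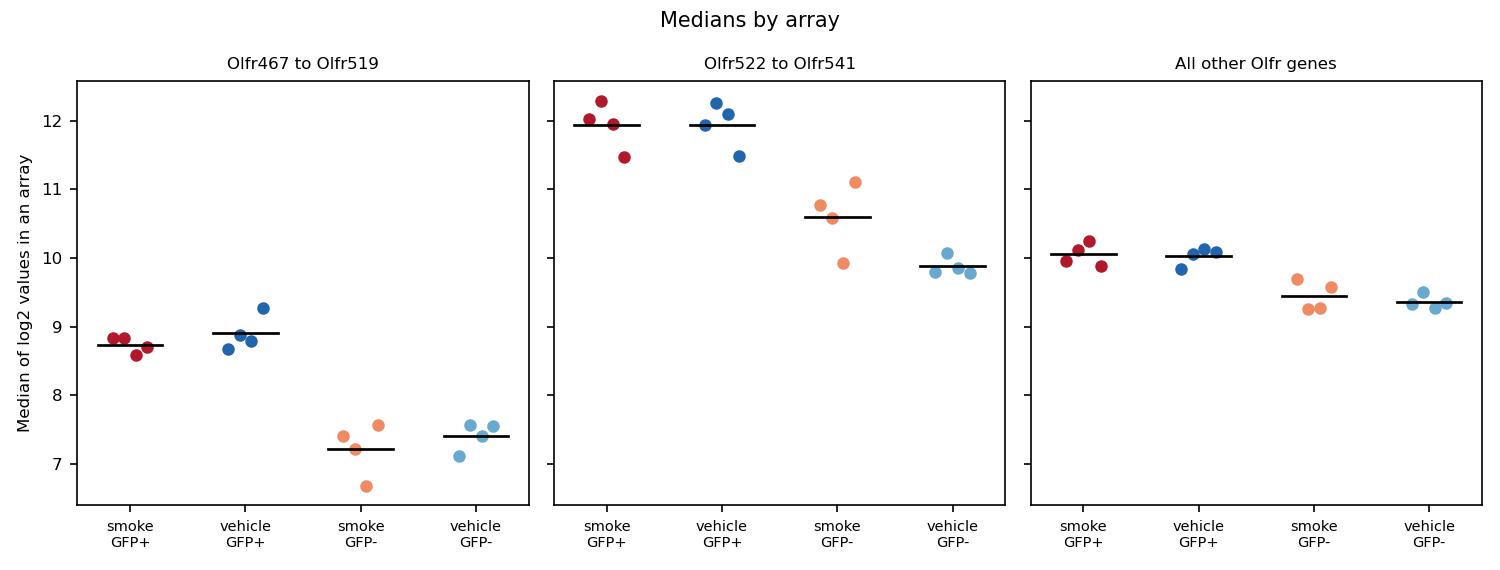
Median of the log2 values (y axis) of each set of receptors on each array, by group (x axis), with the mean of the 4 medians as a black line. In the Olfr522 to Olfr541 block the smoke GFP- medians run from 9.93 to 11.10, against 9.78 to 10.07 in vehicle GFP- cells.

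The member with the smallest p on the higher side was Olfr518, the one of the Olfr467 to Olfr519 block that was higher at an unadjusted p below 0.05. It had 6.80, 7.00, 5.86 and 6.83 in smoke GFP- cells, against 5.19, 6.03, 5.28 and 5.38 in vehicle GFP- cells at the vomeronasal level, and was at least 1.35-fold higher (adjusted p = 0.147, limma). Smoke pool 3 overlapped the vehicle pools, and without it the difference passed the threshold (adjusted p = 0.0167). With all pools and values raised to the vomeronasal level, the log2 difference was 0.51 (adjusted p = 0.697). Olfr527 had 11.19, 11.07, 9.98 and 11.13 in smoke GFP- cells, against 9.80, 10.07, 9.75 and 9.66 in vehicle GFP- cells, a difference of 1.02 ± 0.32 (adjusted p = 0.590, limma). Again smoke pool 3 was the one that fell in with vehicle. Olfr525 had 9.02, 8.09, 8.39 and 8.52 in smoke GFP- cells, against 7.29, 7.78, 7.87 and 8.02 in vehicle GFP- cells, which did not overlap, with a difference of 0.77 ± 0.23 (adjusted p = 0.525, limma). Olfr530, Olfr531 and Olfr532 next to them in number, named after their values were seen, had differences of 0.33, 0.79 and 0.71.

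Among the members lower in smoke GFP- cells, Olfr479 had 8.39, 8.25, 7.80 and 7.68, against 9.28, 9.36, 9.12 and 8.64 in vehicle GFP- cells. The groups did not overlap, and the difference was -1.07 ± 0.28 (adjusted p = 0.345, limma). Olfr509 had 8.84, 8.54, 7.84 and 8.18 in smoke GFP- cells, against 9.0, 9.42, 9.40 and 8.91 in vehicle GFP- cells, without overlap, a difference of -0.83 ± 0.22 (adjusted p = 0.345, limma). Olfr521 had a difference of -1.06 ± 0.22 (adjusted p = 0.127, limma), with no overlap between the GFP- values given above. Both of its GFP- groups lay at the vomeronasal level, so no fold is given. Its difference was 0.07 when values were raised to that level, which is the gap between the levels of the 2 groups.

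**Figure D5:**
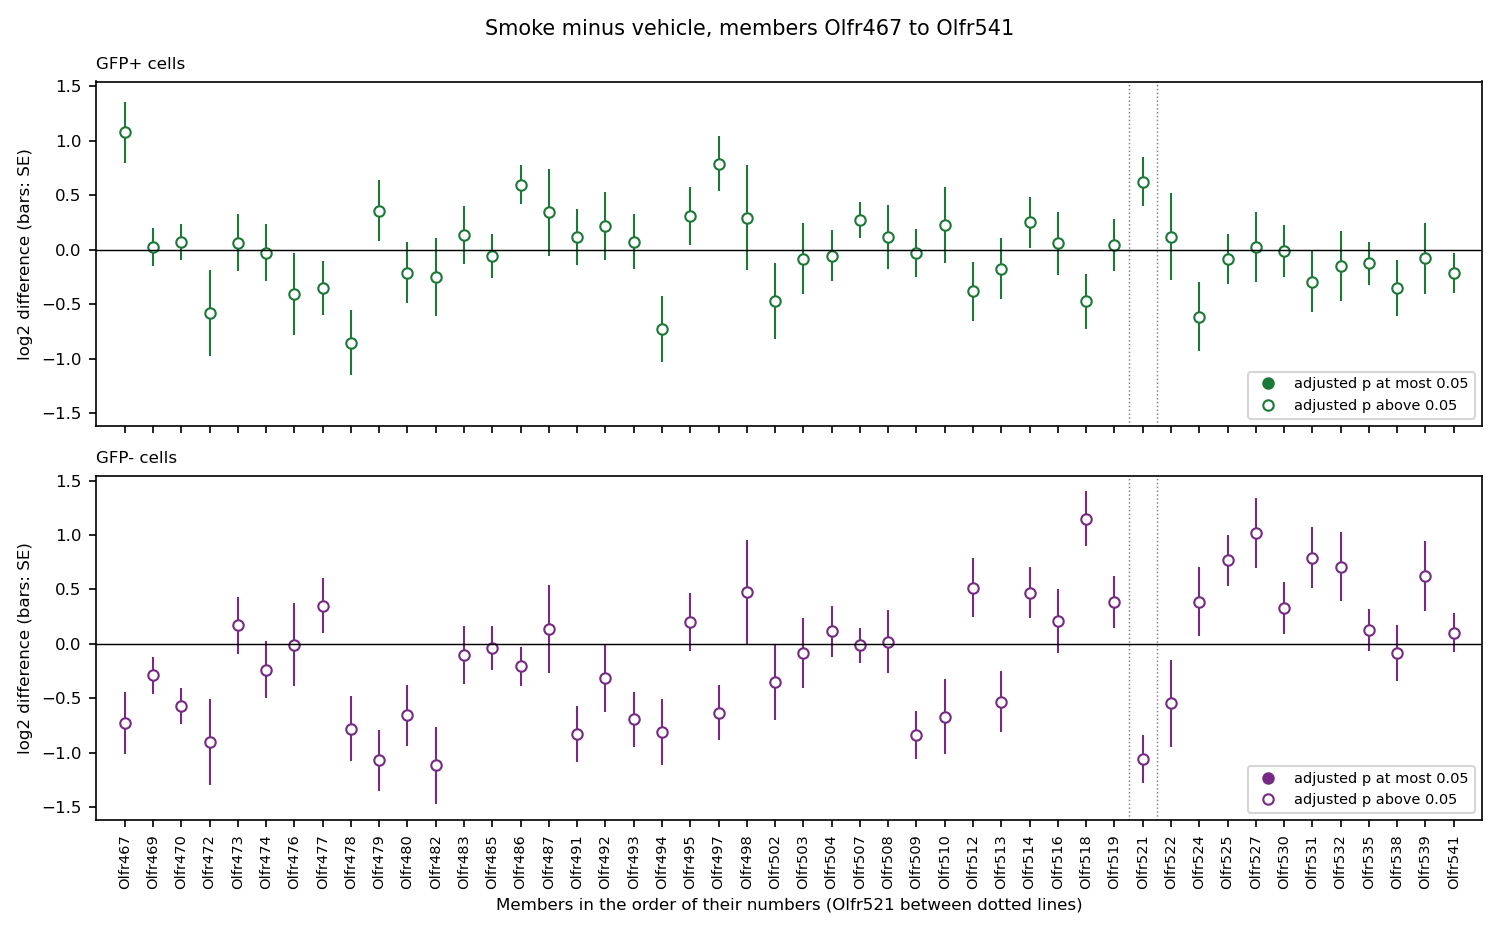
Log2 difference between smoke and vehicle (y axis, bars are SE from limma) for each member in the order of its number (x axis), in GFP+ cells (top) and GFP- cells (bottom). No member passed an adjusted p of 0.05. In GFP- cells 9 of 11 members from Olfr522 to Olfr541 lie above 0 and 24 of 36 from Olfr467 to Olfr519 lie below.

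The sort difference was then compared between exposures, which asks whether a receptor's GFP+ to GFP- ratio was higher in smoke than in vehicle pools. In this comparison 1 of 48 members was called, against 0.174% of all genes (limma), and 15 members had an unadjusted p below 0.05 (31.2%, against 25.6% of the other Olfr genes and 5.71% of all genes). The members' median was 0.04, against -0.22 for the other Olfr genes, of which 29 rose and 1 fell. Groups of pools did not overlap for 5 members higher and 4 lower, against 2% and 2.75% of all genes. Among the other Olfr genes the shares were 8.33% higher and 5.81% lower. In the Olfr467 to Olfr519 block 23 of 36 members were above 0 with a median of 0.21. In the Olfr522 to Olfr541 block 10 of 11 were below 0 with a median of -0.70. The ratio shares its arrays with the comparisons above and repeats their GFP- values.

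The member called was Olfr521. Its GFP+ to GFP- differences were 5.03, 5.36, 5.18 and 4.06 in smoke pools, against 3.36, 3.62, 3.50 and 2.43 in vehicle pools, without overlap, and the ratio rose by 1.68 ± 0.32 on the log2 scale (adjusted p = 0.0423, limma). The exact permutation p over pools was 0.0286, the smallest possible. This call rests on GFP- signals at the vomeronasal level: with values raised to that level the difference was 0.55 (adjusted p = 0.923), and with the pool as a block the adjusted p was 0.165. It was also lost when any of 12 of the 16 arrays was left out singly, with adjusted p-values from 0.0177 to 0.110 over the 16. Olfr518 went the other way, with differences of 1.17, 0.57, 1.48 and 1.03 in smoke pools, against 3.27, 2.32, 2.39 and 2.77 in vehicle pools. Its ratio was lower by a log2 difference of -1.63 ± 0.35 (adjusted p = 0.120), and with the pool as a block it passed the threshold (adjusted p = 0.0480, limma). Its vehicle GFP- values lay at the vomeronasal level, and with values raised to that level the difference was -0.99 (adjusted p = 0.403). Olfr467 and Olfr497 had ratios of 1.80 (adjusted p = 0.135) and 1.42 (adjusted p = 0.292), and each was called when arrays were centred on the median of the Olfr genes (adjusted p = 0.0190 and 0.0396, limma). Olfr531 and Olfr525 had ratios of -1.08 and -0.85, not past the threshold (limma).

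Genes that act with the receptor were measured on the same arrays. Over all genes, 18.3% rose and 14.4% fell in GFP+ cells of smoke pools, and 24.2% rose and 15.4% fell in those of vehicle pools. Of 22 measured olfactory transduction genes, 7 rose and 2 fell in GFP+ cells of smoke pools, and 10 rose and 2 fell in those of vehicle pools, with medians of 0.22 and 0.27. The risers included Pde1c, a phosphodiesterase that breaks down cyclic nucleotides, at 0.79 in smoke and 0.82 in vehicle pools, and Ano2, the calcium-activated chloride channel of the cilia, at 0.51 and 0.60. Rgs2, a regulator of G protein signalling, was at the vomeronasal level in GFP+ cells and fell, with means of 5.55 in smoke GFP+ against 11.71 in smoke GFP- cells, and the immune list fell at 11 of 11 genes in each exposure. Of 10 receptor choice genes, 0 rose and 2 fell in smoke pools, and 2 rose and 1 fell in vehicle pools, with medians of 0.00 and 0.07. Lbr, which encodes the lamin B receptor, fell by 2.13 in smoke and 2.53 in vehicle pools, and Ehmt1, a histone methyltransferase gene, fell by 0.45 in smoke pools. The transcription factor genes Atf5 and Ebf2 rose by 0.43 and 0.38 in vehicle pools. Of these 32 genes 0 were called between smoke and vehicle in either fraction (limma). At an unadjusted p below 0.05 there were 2 in GFP+ and 0 in GFP- cells, against 4.8% and 5.72% of all genes. The values of the 32 genes are given as background to the members, and their part in the members' differences was not tested.

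The 10 receptors left out of the range, measured on the same arrays, included those with the larger differences with smoke. Olfr484 rose by 2.15 in smoke GFP+ cells (adjusted p = 0.00438), and Olfr488 and Olfr506 fell by 3.34 and 2.10 in smoke GFP- cells (adjusted p = 6.79e-05 and 0.00252, limma). Olfr490, at the vomeronasal level in smoke GFP- cells, was at least 1.69-fold lower there (adjusted p = 0.00151, limma), while the differences of Olfr481, Olfr517, Olfr520, Olfr523, Olfr533 and Olfr536 in either fraction did not pass.

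Signals of different probe sets do not give the relative amounts of their transcripts, and levels are given by member only. The probe sets with the highest mean over the 16 arrays were those of Olfr541, Olfr535, Olfr522, Olfr527 and Olfr483. Olfr541 had 14.79, 14.38, 14.20 and 14.32 in smoke GFP+ cells, against 13.47, 13.18, 13.17 and 13.90 in smoke GFP- cells. The probe sets with the lowest mean were those of Olfr503, Olfr504, Olfr514, Olfr485 and Olfr498, all at the vomeronasal level in each group. All values of the members lay between 3.99 and 15.04.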

How the data were processed

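The values are log2 array signals as the authors deposited them. Per the submitters' processing notes, Affymetrix Expression Console was used, with no version, algorithm or annotation build given in the sources used here. A 16-bit scanner reaches 16 on a log2 scale, and 0.946% of the values exceeded it, so folds may be stretched. Of 28846 probe sets, 19572 carried a single gene symbol. Where a gene had several, the one with the highest mean over the arrays was used, giving 19505 genes, and each member had 1 probe set. Median signals were 7.87 to 7.96 on GFP+ arrays and 8.19 to 8.29 on GFP- arrays, and arrays of a group correlated with r of 0.988 to 0.995 over all genes.

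All 16 arrays entered 1 limma fit (version 3.58.1 under R 4.3.3, lmFit and eBayes) of 4 group means, from which 5 contrasts were taken. Two-sided p-values were adjusted over all genes after Benjamini and Hochberg, and the threshold was 0.05. The model was tested on simulated data. Single values were also compared by exact permutation. Labels say that GFP+ and GFP- cells with the same exposure and number come from 1 pool of mice, and residuals of these pairs correlated with r of 0.045 to 0.22. Pools are taken as separate animals. The main fit did not use the pairing within pools, so its p-values rest on the spread of arrays within groups. The pool as a block was an alternative.

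The members and lists were chosen with earlier results of these data known. The genes named were, for each contrast, up to 8 members each way with the smallest p past the threshold, or else 3, the 5 members with the highest and the 5 with the lowest mean, the 10 left out, S100a5 and Omp, and a few from each list. Members were to be compared by protein sequence. No protein table was at hand, and the first 50 coding bases were compared instead. Alternatives covered blocks, scaling, weights, filters, thresholds and left-out arrays. The level of vomeronasal receptors was added as a floor after the data were seen. Plots were made in matplotlib 3.10.9 under Python 3.11.15.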

Additional observations from a re-analysis of the deposited data

Results flagged for a closer look

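Among the named members, 108 groups of 4 arrays were checked for a sample far from the others, and 7 were found, where chance gives about 1 in 20. In smoke GFP+ cells, Olfr478 was 8.53 in replicate 4, against 7.39 to 7.57 in the others, and Olfr486 was 6.68 in replicate 3, against 6.66 in each of the others. In smoke GFP- cells, Olfr485 was 5.79 in replicate 1, against 4.75 to 4.90, and Olfr527 was 9.98 in replicate 3, against 11.07 to 11.19. In vehicle GFP- cells, Olfr478 was 6.12 in replicate 3, against 6.61 to 6.71. In that group replicate 1 stood apart for Olfr514, at 3.99 against 4.83 to 4.97, and for Olfr541, at 13.65 against 13.20 to 13.26. The signals of Olfr485 and Olfr514 lay at the vomeronasal receptor level.

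The GFP+ to GFP- ratio of Olfr521 differed between smoke and vehicle pools by 1.68 on the log2 scale in limma's test of the difference, with both GFP- groups at the vomeronasal receptor level.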

How the results depend on the processing

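Of 115 alternative counts of called members, 100 stayed within 1.5 times the count reported. The others all came from the ratio or from smoke against vehicle GFP- cells, where 1 and 0 members were called. These counts take no account of direction or of which member was called. In the ratio, the replicate number block, or leaving out smoke GFP- replicate 3, gave 0 members higher and 1 lower. Without smoke GFP- replicate 1 or vehicle GFP+ replicate 4, the 1 member higher was not Olfr521. With the replicate number as a replicate block, 1 member (Olfr518, adjusted p = 0.0267) was called in smoke against vehicle GFP- cells. The residuals of same-numbered smoke and vehicle arrays correlated with r of -0.084 to 0.20, against 0.045 to 0.22 for arrays of 1 pool. These ranges overlap, so the correlations cannot tell whether the number pairs exposures, and the main fit did not use it. The number of members called in the ratio between exposures was 3 when arrays were centred on the Olfr median, and 0 with values above 16 set to 16, without smoke pools 2 and 4, or with values raised to the vomeronasal level. With the pool as a replicate block it was 1, but Olfr518 (-1.63) in place of Olfr521. The same block gave 38 members in the smoke sort and 39 in the vehicle sort, and the replicate number block 37 and 39. Leaving out single arrays gave 0 in smoke against vehicle GFP+ cells, 0 to 1 in GFP- cells, 0 to 1 in the ratio, 35 to 38 in the smoke sort and 35 to 37 in the vehicle sort. Of 851 alternative values of named members 815 kept their direction and side of the threshold. The 2 that changed sign were Olfr521 in GFP- cells (0.07) and Olfr498 in the smoke sort (0.20), both when values were raised to the vomeronasal level. That step sets lower values to each array's own level, so gaps between the levels of arrays remain. The level was higher in GFP+ than in GFP- cells, at 6.57 against 6.26 in smoke pools. With it, 40 members rose and 3 fell in the smoke sort, and 39 rose and 3 fell in the vehicle sort. The cause of the other changes was not tested.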
